A study of Mus musculus with 6 samples.

Results

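The miR-29 family was examined in small RNA libraries of extracellular vesicles shed by primary mouse hepatocytes in culture. Its members were taken by name from the deposited table: mmu-miR-29a-3p, mmu-miR-29b-3p, mmu-miR-29c-3p and mmu-miR-29c-5p, 4 of the 1976 mature miRNAs listed. The vesicles, called exosomes in the labels, came from wild-type C57BL/6J hepatocytes given palmitic acid at 600 µM (3 libraries) or at 0 µM (3 control libraries). Palmitic acid, a saturated fatty acid, fills cultured hepatocytes with lipid, and the title of the series places the comparison in hepatic steatosis. The labels give no treatment time and leave it unsaid whether replicates are different animals, so p-values here measure the spread between these libraries only, which may be technical.

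A miRNA hairpin is cut into a duplex with a 5p and a 3p arm. One arm is loaded into an Argonaute protein and pairs with target transcripts mainly through its seed, the bases just inside its 5′ end. In the miR-29 family the 3p arm is the usual guide, and its best known targets are transcripts for collagens, elastin and other extracellular matrix proteins, along with DNA methyltransferases. In liver the family is known for its fall in activated hepatic stellate cells, the cells that lay down scar collagen.

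The sequences below are shown because they carry the division of the family: the 3p arms share 1 seed, whereas the 5p arm of miR-29c has another. They are RefSeq mature sequences on GRCm38.p6, written 5′ to 3′, with the seed (bases 2 to 8) in capitals.
miR-29a-3p: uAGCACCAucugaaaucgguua
miR-29b-3p: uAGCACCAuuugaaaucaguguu
miR-29c-3p: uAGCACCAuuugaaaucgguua
miR-29c-5p: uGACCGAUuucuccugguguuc

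Among the 1679 mature mouse miRNAs with a RefSeq sequence, no others than these 3 had the seed AGCACCA, and no other had the seed of miR-29c-5p. With positions counted from 1 at the 5′ end, miR-29c-3p differs from miR-29a-3p by C10U alone. miR-29b-3p differs from miR-29c-3p by G18A, U21G and A22U and is 1 base longer. Reads of miR-29a-3p and miR-29c-3p with an error at that single base, or too short to tell the arms apart, could be counted under the wrong name, so their single values carry that uncertainty. The last 6 bases of miR-29b-3p, AGUGUU, are known from work on human miR-29b as a signal that carries it to the nucleus. They were present in 12 of the 1679 sequences (0.715%), and not in miR-29a-3p or miR-29c-3p. The 3p arms are also poor in G and C, at 40.9% in miR-29a-3p, 34.8% in miR-29b-3p and 36.4% in miR-29c-3p, against a median of 45.5% over the tested miRNAs with a sequence, while miR-29c-5p has 50%.

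The family comes from 4 hairpins in 2 pairs. Mir29a (GRCm38 chromosome 6, 31062660 to 31062747) and Mir29b-1 (31063023 to 31063093) lie 275 bases apart on the minus strand. Mir29b-1 lies in an exon of the long intergenic non-coding transcript Gm27019, and no GENCODE host transcript covers Mir29a. Mir29b-2 (chromosome 1, 195037040 to 195037120) and Mir29c (195037547 to 195037634) lie 426 bases apart on the plus strand in exons of the non-coding transcript A330023F24Rik, and also overlap exons of Cd46 on the opposite strand. Mir29b-1 and Mir29b-2 give the same mature miR-29b-3p, so its value is the sum over both. The Mir29c and Mir29a hairpins are printed with both mature arms in capitals, to show that each holds a separate 5p sequence opposite a 3p arm with the shared seed.
Mir29c: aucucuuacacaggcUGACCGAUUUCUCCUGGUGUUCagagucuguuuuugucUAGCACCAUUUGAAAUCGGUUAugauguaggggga
Mir29a: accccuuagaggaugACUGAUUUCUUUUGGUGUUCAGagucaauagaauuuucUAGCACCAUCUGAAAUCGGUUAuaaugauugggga

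Deposited values are log2(adjusted count + 1), where the adjusted count is a read number brought to a common library size. Whole reads were recovered from them, with totals of 613360 to 798949 reads in palmitic acid libraries and 95339 to 657790 in controls. The arms of miR-122, the defining hepatocyte miRNA, were found in all 6 libraries and took 11.8% to 15.3% of palmitic acid reads and 69.1% to 87.7% of control reads, which leaves 534182 to 676632 reads and 29432 to 80871 reads for all other miRNAs. Levels are therefore also given as RPM (reads per 1000000 reads), scaled either to all reads or to non-miR-122 reads, which leave out the miR-122 and miR-122b arms. Control replicate 1, the shallowest library, stood apart for miR-29a-3p, and control replicate 3 for miR-29b-3p on the deposited scale; the values that rest on them are also given without them. Intervals on reads take in counting error alone, and they treat reads as independent molecules, which PCR copies are not.

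Every miR-29 member was higher in each palmitic acid library than in each control library on the deposited scale, and 3 of the 4 passed the test across all miRNAs. miR-29c-3p differed most, and miR-29b-3p, which varied widely among controls, did not pass. The place of miR-29c-5p among the others depended on the pseudocount, since its controls hold no read: its log2 change was 3.87 as deposited and 2.10 with a pseudocount of 5, the lowest of the 4 members there. In limma's moderated test with Benjamini-Hochberg adjustment over 181 tested miRNAs, 42% of all tested miRNAs were called higher in palmitic acid vesicles and 14.4% lower, so a call in the higher direction was common. Groups that did not overlap were found for 48.6% of tested miRNAs with palmitic acid higher and for 19.3% with it lower, and the median log2 change of all 181 was 1.94. By size of the log2 change, miR-29c-3p ranked 2, miR-29c-5p 50, miR-29a-3p 54 and miR-29b-3p 61. miR-30b-5p, which the title of the series names, ranked 27 at 4.67. Both miR-29c arms reached an adjusted count of 10 in palmitic acid libraries alone, so the filter on low values fixed their direction. Without that filter both were still called (adjusted p = 0.00483 for miR-29c-3p and 0.00697 for miR-29c-5p), where 8.32% of 1058 miRNAs were called higher and 5.67% lower.

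**Figure D1:**
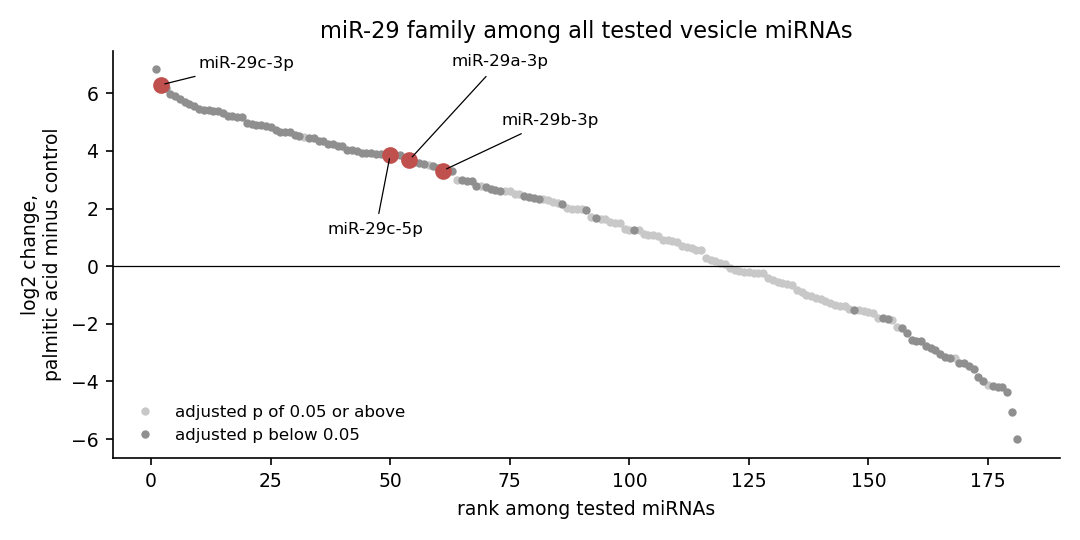
Log2 change (palmitic acid minus control, on the log2(adjusted count + 1) scale) of each of the 181 tested miRNAs, ordered from highest to lowest, with the 4 miR-29 members in red and dark grey for an adjusted p below 0.05. miR-29c-3p stands at rank 2, and the other members lie together at ranks 50 to 61.

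**Figure D2:**
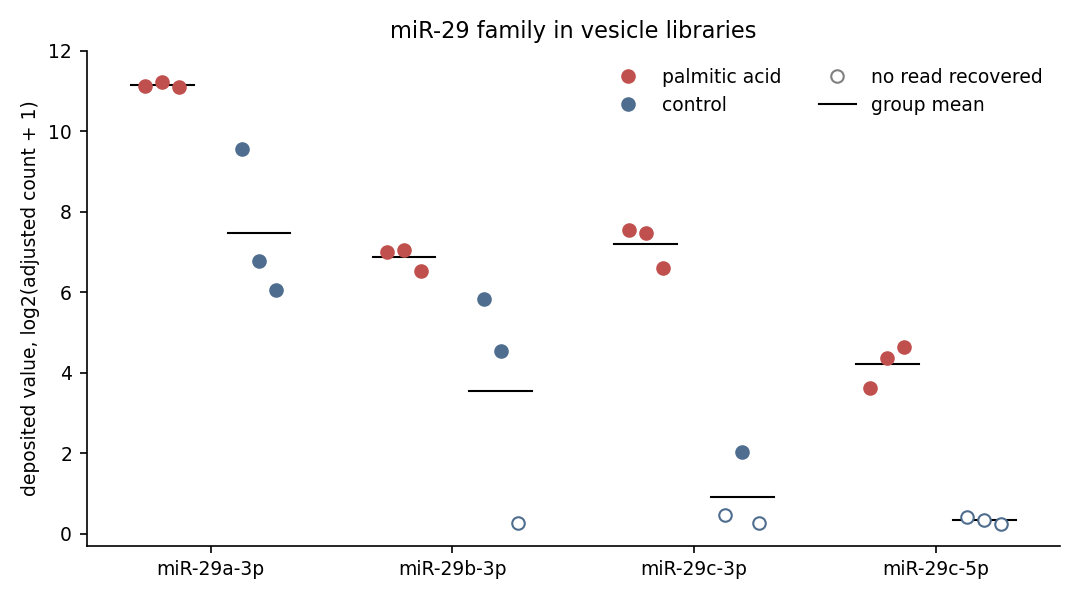
Deposited log2(adjusted count + 1) of the 4 miR-29 members in each library, palmitic acid left and control right, with a line at the group mean (n = 3 each) and open circles where no read was recovered. Palmitic acid libraries lie close together for miR-29a-3p, between 11.09 and 11.23, whereas control values of miR-29b-3p run from 0.27 to 5.84.

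miR-29a-3p made up most of the family in both groups. Its deposited log2 values were 11.12, 11.23 and 11.09 in palmitic acid replicates 1, 2 and 3, against 9.56, 6.78 and 6.04 in control replicates 1, 2 and 3. The palmitic acid libraries lay within 0.15 of each other, while control replicate 1 lay well above the other controls and nearer to the palmitic acid libraries. These values rest on 4557, 6880 and 3666 recovered reads with palmitic acid and on 243, 40 and 30 reads in controls. Its log2 value rose by 3.685 (limma SE 0.82, 95% interval 1.78 to 5.59, adjusted p = 0.00542), 1.75 above the median tested miRNA. Without control replicate 1 the log2 change was 4.73 (adjusted p = 4.6e-04), and with no filter on low values the call was lost (adjusted p = 0.0710).

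The size and the call of the miR-29a-3p difference depended on what the reads were counted against. Scaled to all reads, miR-29a-3p stood at 5704, 9034 and 5977 RPM in palmitic acid libraries and at 2549, 60.8 and 119 RPM in controls, so the groups did not overlap, as for 55.8% of tested miRNAs with palmitic acid higher and 5.52% with it lower. Scaled to non-miR-122 reads, it stood at 6735, 10237 and 6863 RPM with palmitic acid and at 8256, 495 and 569 RPM in controls. On that scale control replicate 1 (95% Poisson interval 7251 to 9362) lay above palmitic acid replicates 1 and 3, and the groups overlapped; 36.5% of tested miRNAs had groups apart there with palmitic acid higher and 28.7% with it lower. The log2 change there was 2.55 (limma adjusted p = 0.0729) and no longer passed, where 31.5% of tested miRNAs were called higher and 22.7% lower. Against library totals it was 4.66 (adjusted p = 0.0113), with 49.2% of tested miRNAs called higher and 4.42% lower. With each library centred on its median tested miRNA it was 2.90 (adjusted p = 0.00594), with 35.9% called higher and 22.1% lower.

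**Figure D3:**
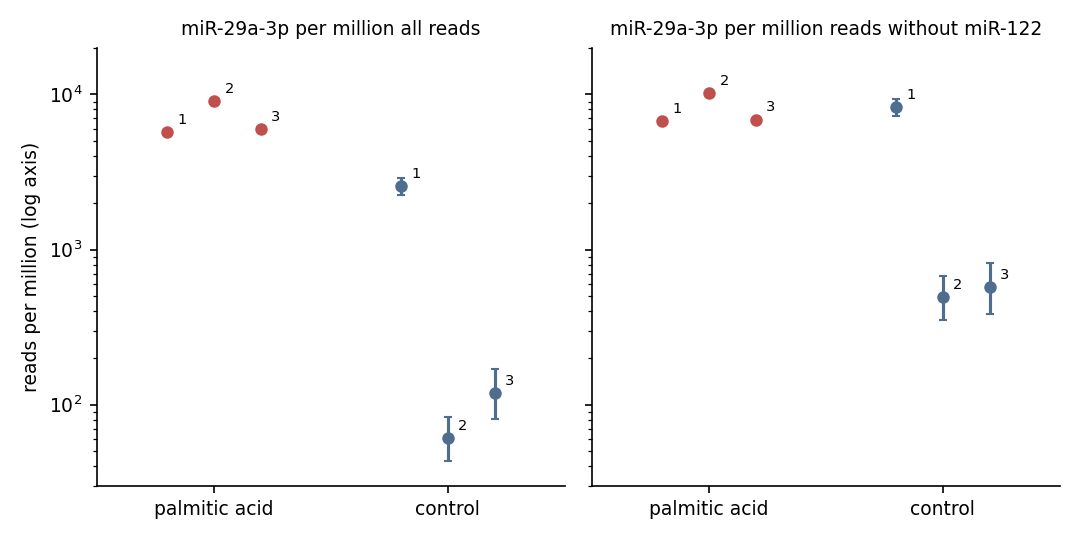
miR-29a-3p in RPM (log axis) in each library, with 95% Poisson intervals and replicate numbers, against all reads (left panel) and against non-miR-122 reads (right panel). Control replicate 1 lies below all palmitic acid libraries in the left panel, at 2549, and among them in the right panel, at 8256.

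miR-29b-3p, the member with the nuclear import signal, ranked next after miR-29a-3p in controls and below miR-29c-3p with palmitic acid. Its deposited log2 values were 7.01, 7.05 and 6.53 with palmitic acid, against 5.84, 4.53 and 0.27 in controls, from 261, 377 and 154 reads and from 18, 8 and 0 reads. The groups did not overlap, but the controls spread over a wide range, with no read at all in control replicate 3. The log2 change was 3.32 (SE 1.41, 95% interval 0.06 to 6.57) and did not pass over all tested miRNAs (limma adjusted p = 0.0776). Without control replicate 1 it was 4.46 and passed (adjusted p = 0.0244); without control replicate 3 it was 1.68 and did not (adjusted p = 0.0686). Scaled to non-miR-122 reads it stood at 386, 561 and 288 RPM with palmitic acid and at 612, 98.9 and 0 RPM in controls, where control replicate 1 was above every palmitic acid library.

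miR-29c-3p, which shares its seed with the other 3p arms, was nearly absent from control libraries. Its deposited log2 values were 7.54, 7.47 and 6.61 with palmitic acid, from 378, 505 and 163 reads. In controls they were 0.46, 2.02 and 0.27, from 0, 1 and 0 reads, so the control values rest on a single read and on what the adjustment gives to 0 reads. Unlike the other 3p arms, it showed no high value in control replicate 1. It rose by 6.29 (SE 0.80, 95% interval 4.45 to 8.13, limma adjusted p = 3.1e-04), and the log2 change lay between 4.64 and 8.33 over the 16 alternatives, all past the threshold. Those alternatives draw on the same control reads, and except with no filter, the filter on low values fixed the direction. Pooled over libraries, 1046 reads against 1 read gave a ratio of 484 per library total (95% exact counting interval 86.7 to 19129) and of 90.6 per non-miR-122 reads (16.2 to 3580). The single control read sets the width of these intervals.

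miR-29c-5p, the opposite arm of the same hairpin with its own seed, was found in palmitic acid libraries alone. Its deposited log2 values were 3.61, 4.37 and 4.64 with palmitic acid, from 23, 56 and 40 reads, against 0.41, 0.34 and 0.25 in controls, where no read was recovered. It rose by 3.87 (SE 0.30, limma adjusted p = 2.1e-05), and its control values are what the adjustment gives to 0 reads, not a measured spread. With 3 reads over all controls taken as the floor, it was at least 18.3-fold higher per library total and at least 3.43-fold higher per non-miR-122 reads. All 17 tested miRNAs without a control read were called higher, a direction the filter fixed for them too. Within palmitic acid libraries, miR-29c-5p made up 5.74% of the reads of both miR-29c arms in replicate 1 (95% Clopper-Pearson interval 3.67 to 8.48), 9.98% in replicate 2 (7.63 to 12.8) and 19.7% in replicate 3 (14.5 to 25.9). In controls, with 1 read of the hairpin in all, that share could not be measured.

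**Figure D4:**
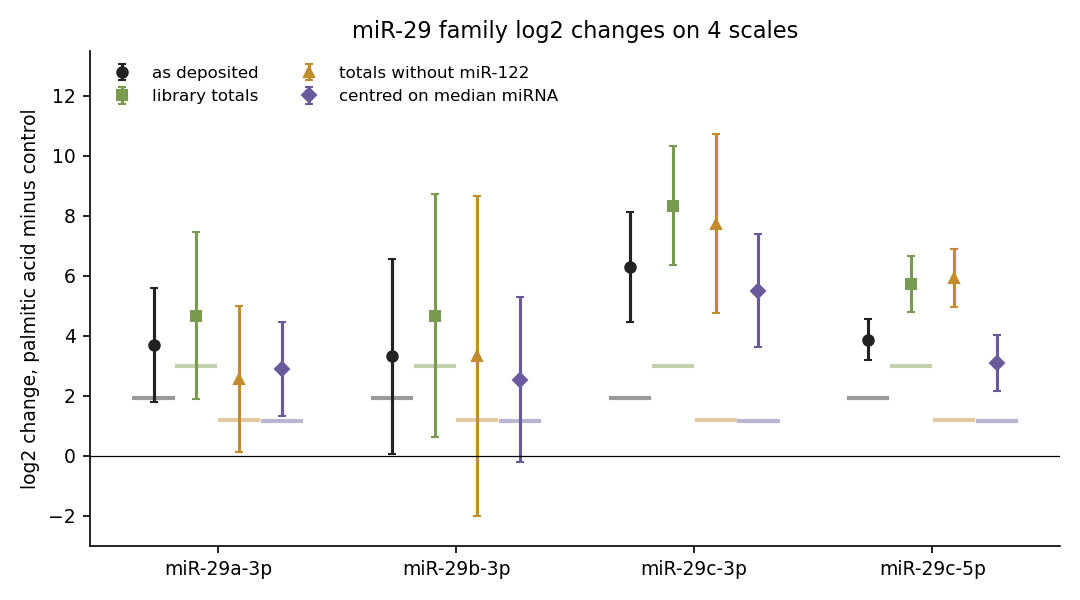
Log2 change (palmitic acid minus control) of the 4 miR-29 members with its 95% interval from limma (n = 3 each) on 4 scales, and a pale bar at the median of the 181 tested miRNAs on the same scale. All 4 members lie above 0 and above the median on each scale. Only the interval of miR-29b-3p reaches below 0, on the scales without miR-122 and centred on the median.

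The make-up of the 3p arms was compared within libraries, where depth and scale cancel. miR-29a-3p held 87.7%, 88.6% and 92.0% of 3p reads in palmitic acid replicates 1, 2 and 3, against 93.1%, 81.6% and 100% in control replicates 1, 2 and 3. Of miR-29a-3p and miR-29c-3p together, miR-29c-3p held 7.66% (95% Clopper-Pearson interval 6.93 to 8.44), 6.84% (6.27 to 7.44) and 4.26% (3.64 to 4.95) with palmitic acid. In controls it held 0 of 243 reads in replicate 1, which allows a share of up to 1.23%, 1 of 41 reads in replicate 2 (2.44%, interval 0.0617 to 12.9), and 0 of 30 reads in replicate 3, which allows up to 10%. Only control replicate 1 was deep enough in miR-29 reads to lie below the palmitic acid shares beyond counting error, and at the depth of the other controls a lower share was not detectable.

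**Figure D5:**
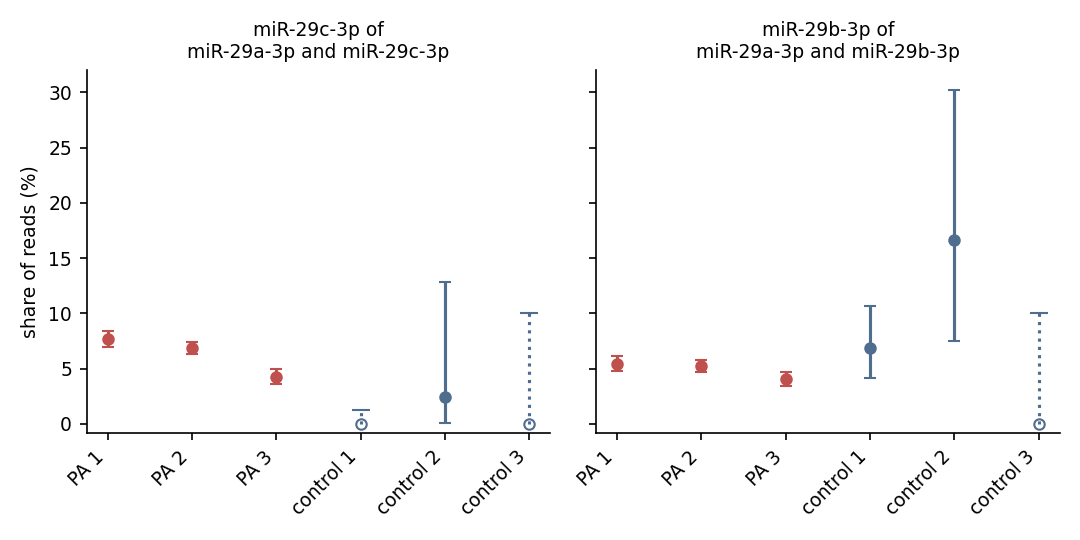
Share of miR-29c-3p (left panel) and of miR-29b-3p (right panel) in its summed reads with miR-29a-3p, in percent, for each palmitic acid (PA) and control library, with 95% Clopper-Pearson intervals and, for open circles at 0 reads, a dotted line up to the limit that a count of 0 allows. The share of miR-29c-3p in control replicate 1 is limited to 1.23%, under every palmitic acid interval, while the miR-29b-3p intervals of control replicate 1 and palmitic acid replicates overlap.

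The within-library log2 ratio of miR-29c-3p to miR-29a-3p averaged -3.94 ± 0.48 with palmitic acid and -7.08 ± 2.46 in controls (SD, n = 3 each), a difference of 3.13 with no overlap, in which the controls hold 1 read of miR-29c-3p in all. The difference was 1.79 without control replicate 1 and up to 4.20 with another library left out, and with a pseudocount of 5 it was 1.002 (exact permutation p = 0.5). A two-sided exact permutation test returned p = 0.1, as low as this design can go, and 0.2 after adjustment over 4 ratios. miR-29c-3p to miR-29b-3p averaged 0.35 ± 0.24 with palmitic acid, but in controls it could not be compared, since control replicate 3 held no read of either arm and control replicate 1 none of miR-29c-3p. The ratio of miR-29b-3p to miR-29a-3p differed by -0.11 (-4.29 ± 0.24 with palmitic acid, -4.18 ± 2.17 in controls, exact permutation p = 1). Its control values ran from -6.54 to -2.27, wider than the spread of the palmitic acid libraries. The lowest, in control replicate 3, rests on 0 reads of miR-29b-3p. Without that library the difference was -1.29, and without control replicate 2 it was 0.85. With a pseudocount of 5 it was -1.09 (exact permutation p = 0.1). miR-29c-5p to miR-29c-3p differed by -2.26 (exact permutation p = 0.2, adjusted 0.267), a value that rests on 1 control read. Among palmitic acid libraries miR-29c-3p held 59.2% of its summed reads with miR-29b-3p in replicate 1 and 57.3% in replicate 2. The Clopper-Pearson intervals, 55.2 to 63.0 and 53.9 to 60.5, lay above equal levels. In replicate 3 the share was 51.4%, with an interval of 45.8 to 57.0 that includes equal levels.

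For each member, the tested miRNAs most like it were found by Euclidean distance over the 6 deposited log2 values, each miRNA centred on its own mean. Nearest to miR-29a-3p were miR-379-5p (distance 1.21), miR-330-5p (1.42) and miR-103-3p (1.68), which had their highest control value in replicate 1 as well, at 2.94, 3.43 and 5.84. That likeness comes with the choice by distance, and these miRNAs had 2, 4 and 21 control reads in all. Nearest to miR-29b-3p were miR-23a-3p (1.37), miR-130a-3p (1.58) and miR-16-5p (1.65). Nearest to miR-29c-3p were miR-7b-5p (1.52), miR-17-5p (1.52, without a control read) and miR-101b-3p (1.53). Nearest to miR-29c-5p were miR-187-3p (0.53), miR-221-5p (0.68) and miR-26b-5p (0.91), the first pair also without a control read. No member was among the 3 nearest of another. miR-29a-3p ranked 9 by distance from miR-29b-3p, and miR-29b-3p ranked 18 by distance from miR-29a-3p, while miR-29c-3p ranked 85 from miR-29a-3p and 92 from miR-29b-3p.

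Other miRNAs linked to the same biology were set beside the family. Of 9 miRNAs known to lower collagen output or stellate cell activation in liver, 7 were tested, with 4 that rose, 2 that fell and 1 that did not pass, beside 42% of all tested miRNAs called higher and 14.4% lower. Their median log2 change was 4.45 against 1.94 over all tested miRNAs. This list and those below were chosen with earlier results of these data known, so that gap is not a test. miR-101a-3p rose by 4.65, miR-30a-5p by 4.52 and miR-378a-3p by 4.45, and these calls held on all 4 scales. miR-19b-3p rose by 5.81 but had no control read. miR-122-5p fell by 3.56 (limma adjusted p = 0.0141). miR-146a-5p, known to damp inflammatory signalling, fell by 2.13 (limma adjusted p = 0.0332), a call lost against library totals (-1.17, adjusted p = 0.335). miR-194-5p stood at -0.23 and was called lower without miR-122 in the totals (-1.40, adjusted p = 0.0471).

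Of 9 miRNAs known to raise liver fibrosis or stellate cell activation, 6 were tested, of which 2 rose and 0 fell in limma's test (0 also at an unadjusted p below 0.05), no larger a share than the 42% called higher and 14.4% called lower over all tested miRNAs, with a median of 2.42. miR-21a-5p rose by 3.89 and miR-34a-5p, a p53 target without a control read, by 5.31. miR-221-3p stood at 2.60 (limma adjusted p = 0.0519; 0.00981 against library totals), miR-155-5p at 2.23, miR-222-3p at 1.13 and miR-199a-3p at -1.63, the last called lower on the scales centred on the median and without miR-122. Of 3 other miRNAs known to target DNA methyltransferases, miR-152-3p rose by 2.35 (adjusted p = 0.0166), a call lost without miR-122 in the totals (1.26, adjusted p = 0.181) and with centring (1.56, adjusted p = 0.0613), while miR-148a-3p stood at 0.83 and miR-148b-3p at 1.53. Against library totals all 3 were called higher, miR-148a-3p at 1.80 (adjusted p = 0.00337) and miR-148b-3p at 2.52 (adjusted p = 0.0227).

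Because miR-29 is also present in cells other than hepatocytes, marker miRNAs were summed by library. The 5 stellate cell and fibroblast markers reached 520 to 642 RPM with palmitic acid and 2475, 167 and 606 RPM in control replicates 1, 2 and 3; miR-145a-5p had no read in any control and miR-214-3p had 2 reads in all. Of these 5, 3 were tested and 0 passed in limma's test (0 also at an unadjusted p below 0.05), with a median of -1.50; with centring, or without miR-122 in the totals, 2 of the 3 were called lower. The erythroid pair miR-451a and miR-486a-5p reached 24.5 to 160 RPM with palmitic acid and 5695, 38.0 and 218 RPM in controls. Of that pair, miR-486a-5p fell by 4.20 (limma adjusted p = 0.00557; 0.0670 against library totals) and miR-451a stood at -3.20. The 3 striated muscle markers reached 26.3 to 50.1 RPM with palmitic acid and 2360, 95.8 and 1022 RPM in controls, with miR-133a-3p at 0 in all libraries and the 1 tested, miR-206-3p, lower. The 2 endothelial markers reached 3744 to 4958 RPM with palmitic acid and 2958, 865 and 3418 RPM in control replicates 1, 2 and 3. The 1 tested did not pass (0.07, called lower without miR-122 in the totals). The 4 immune and Kupffer cell markers had 4 to 13 reads with palmitic acid and 0 to 11 in controls and none was tested. Of 4 hepatocyte markers miR-192-5p rose by 1.94, a call lost with centring or without miR-122 in the totals, miR-122-5p fell, and miR-148a-3p and miR-194-5p did not pass, though each was called on another scale as given above. Control replicate 1, with the highest miR-29a-3p among controls, also held their highest stellate cell, erythroid, striated muscle and immune sums in RPM. Its endothelial and hepatocyte sums were not the highest. The part of these cells in the miR-29 values was not tested, and fewer vesicles of a kind and less miRNA per vesicle cannot be told apart in bulk libraries.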

How the data were processed

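RNA was extracted with Trizol and libraries were built with NEBNext Multiplex reagents for small RNA, per the labels. Bowtie2, bedtools, GRCm38 and mm10 are named, without roles, in the submitters' processing notes; the read assignment to miRNAs is not given in the sources used here. Although named as raw counts, the 1 table the authors deposited holds log2 values. Judged by the values, they are log2(adjusted count + 1) after a negative binomial quantile adjustment with 1 dispersion (fitted at 1.39), 1 factor per library and 1 mean per miRNA, a step no label states. In 108 rows a value above 0 stands without any read in these 6 libraries, so the adjustment may have included other libraries, not analysed here. It was inverted to reads: 100% of 4387 testable values came out whole within a log2 tolerance of 0.0015 (testable: adjacent read numbers 0.02 or more apart). On simulated data (1058 rows) 99.8% of read numbers came back within 0.2%. For high values, rounding leaves an error of up to 2.39 reads for a member.

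limma 3.58.1 (R 4.3.3), with group as its term and a trended prior variance, was run on the deposited log2 values of miRNAs whose adjusted count reached 10 in 3 or more libraries, with adjusted p below 0.05 as the threshold. A fold change on this scale understates the change of low miRNAs. In a simulation of the palmitic acid comparison over 181 miRNAs, the call rate was 1.59% at a log2 change of 0, 13.5% at 1, 59.3% at 2 and 99.5% at 4. Such rates hold only for the spread set in the simulation, a dispersion lower than the 1.39 fitted for the adjustment. The log2 values of miR-29b-3p had an SD of 2.91 in controls and 0.29 with palmitic acid. Its change of 3.32 was not called, so the rates give no detection limit for a member with that spread. Ratios used 0.5 added to each adjusted count. Alternatives covered scale, filter, pseudocount, variance trend, GC content (161 of 181 miRNAs with a sequence), the replicate number as a block and each library left out. miRNAs were named by rule: all arms of the hairpins, the 3 nearest miRNAs per member, miR-30b-5p, and the calls and up to 4 others of each list. The members and lists were chosen with earlier results of these data known. No replicates agreed within sampling noise (chi-square per degree of freedom 78.9 to 480). Sequences and positions are from RefSeq (GRCm38.p6), host transcripts from GENCODE M21.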

Additional observations from a re-analysis of the deposited data

How the results depend on the processing

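Both miR-29c calls kept their direction and side of the threshold in all 16 alternatives. Except with no filter, the filter on low values fixed that direction. Their control values rest on 1 read in all and on what the adjustment gives to 0 reads. miR-29a-3p did so in 14 and was not past it with miR-122 and miR-122b left out of library totals (2.55, limma adjusted p = 0.0729) or when low values were not filtered (3.685, adjusted p = 0.0710). miR-29b-3p passed with a pseudocount of 5 (2.55, adjusted p = 0.0427), with the replicate block (3.32, adjusted p = 0.0331) and without control replicate 1. With 1 library left out, log2 changes ran from 2.98 to 4.73 for miR-29a-3p, 1.68 to 4.46 for miR-29b-3p, 5.97 to 6.85 for miR-29c-3p (5.9675 at its lowest) and 3.66 to 4.17 for miR-29c-5p, and the ratio of miR-29b-3p to miR-29a-3p from -1.29 to 0.85 and that of miR-29c-3p to miR-29a-3p from 1.79 to 4.20. The cause of these shifts was not tested. The 26 miRNAs called lower became 8 with library totals, 41 without miR-122, 40 with centring and 60 with no filter; the count called higher stayed between 57 and 89. Same-numbered libraries deviated together in 2 of 3 pairs (correlations 0.21, 0.15 and 0.04), too few to tell whether the numbers pair them. The replicate block changed no member's call other than that of miR-29b-3p. Control values of miR-29 arms rest on 340 reads in all, against 17151 with palmitic acid, which limits every statement on their make-up.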

Other observations

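The other 3 arms of the miR-29 hairpins did not pass the filter on low values. In palmitic acid replicates 1, 2 and 3, miR-29a-5p had 16, 27 and 2 reads, miR-29b-2-5p 25, 12 and 4, and miR-29b-1-5p 1, 4 and 0, while none had a read in any control. The 4 5p arms, which unlike miR-29b-3p can be assigned to 1 hairpin each, together held 1.24%, 1.26% and 1.14% of all miR-29 reads with palmitic acid. In controls they held 0 of 261, 0 of 49 and 0 of 30 reads, which allows up to 1.15%, 6.12% and 10%, so a difference was not detectable in single control libraries. Pooled, they held 210 of 17151 reads with palmitic acid (1.22%, 95% Clopper-Pearson interval 1.065 to 1.4005) and 0 of 340 in controls. That 0 allows up to 0.882% by the floor of 3 reads, a one-sided limit less strict than the two-sided interval beside it. The limit lay below that interval, but they were set by different rules, and the difference between the pooled shares was not tested. Counting error also leaves out the spread between libraries, and 261 of the 340 control reads are from replicate 1. Of the 5p reads with palmitic acid, 160 of 210 (76.2%, 95% Clopper-Pearson interval 69.8 to 81.8) came from the chromosome 1 hairpins, and of both miR-29b 5p arms miR-29b-2-5p held 41 of 46 reads. Reads of the 3p arms lay the other way, with miR-29a-3p of chromosome 6 at 89.2% of them. The 5p arm took 0.297% of the reads of both miR-29a arms and 10.2% of the reads of both miR-29c arms in pooled palmitic acid libraries.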
